A study of Mus musculus with 12 samples.

Results

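The genes described here are the heat shock proteins and the DnaJ proteins of the mouse: every row of the deposited table whose name starts with Hspa, Hspb, Hspd, Hspe, Hsph, Hsp90, Dnaja, Dnajb or Dnajc and a number, plus Hspbp1 and Hspbap1, without names marked as pseudogenes. These were 74 of the 44345 genes in the table. Among them were 13 Hspa (Hsp70) genes, 1 Hsph (Hsp110) gene, 3 Hsp90 genes and the mitochondrial pair Hspd1 and Hspe1. The rest were 8 Hspb (small heat shock protein) genes, 2 genes of Hsp-binding proteins, and 4 DnaJ A, 13 DnaJ B and 28 DnaJ C genes. All 74 were chosen by name, not by their values, though with earlier results of these data known. RNA was measured in the L4 to L6 dorsal root ganglia (DRG), which hold the cell bodies of the sensory neurons that run in the sciatic nerve. All mice were C57BL/6, aged 6 to 8 weeks, and ganglia of 2 mice were pooled for every one of the 12 libraries. The study combined nerve injury with indole-3-propionic acid (IPA), a tryptophan product of the intestinal flora. The PBS group received phosphate-buffered saline, the vehicle, by daily gavage for 10 days, and the IPA group received 20 mg/kg IPA in the same way. The PBS.SNC and IPA.SNC groups had the same gavage, then a crush of the sciatic nerve, and their ganglia were taken 3 days later. Each group had 3 libraries. IPA dosing went on for 3 days after the crush, so the contrast of IPA.SNC with IPA mixes injury with longer dosing. The labels do not settle whether vehicle was given over those days, and they name no sex and no batch.

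Chaperones bind proteins that are not folded. Hsp70 proteins do so in cycles of ATP hydrolysis that DnaJ proteins start and that nucleotide exchange factors, among them the Hsp110 proteins, end. Hsp90 proteins act later, on clients such as kinases and steroid receptors, and small heat shock proteins hold unfolding proteins without ATP. Heat shock factor (HSF) drives the inducible members by binding arrays of the unit GAA in alternating directions, and a separate element drives the chaperones of the endoplasmic reticulum (ER). In sensory neurons Hspb1, also called Hsp25 or Hsp27, is a known gene of the response to nerve injury. DnaJ proteins such as auxilin (Dnajc6) and cysteine string protein (Dnajc5) serve vesicle traffic in neurons.

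Promoter sequences are shown first, since inducible chaperone genes are known for these elements, and genes that hold the same letters had different changes below. RefSeq windows on GRCm38.p6, from 250 bases before to 50 after a gene's start, matched 60 of the 74 members. Each sequence below is written 5′ to 3′ on the gene's strand, at its position on GRCm38. The stretches of 30 bases lie within the GENCODE M21 gene for Dnaja4, Hspd1 and Hspa5 and reach into it for Hsph1. In these genes the GENCODE start lies upstream of the RefSeq start used. Capitals mark GAANNTTC or TTCNNGAA, the pairings of GAA units in opposite directions, each of which reads the same on both strands. In the stretch of Hspd1 only TTCNNGAA is marked, and its GAAGGTTC, which shares letters with both marked matches, is not. The first 5 come from genes past the injury test below, and Hspd1 holds an array of such units and was not past it.
Hspb1 (chr5:135887786-135887865, plus strand): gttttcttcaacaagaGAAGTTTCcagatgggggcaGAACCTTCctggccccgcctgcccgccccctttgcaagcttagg
Hspa1b (chr17:34959299-34959378, minus strand): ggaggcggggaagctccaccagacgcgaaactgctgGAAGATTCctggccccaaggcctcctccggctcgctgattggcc
Dnajc27 (chr12:4082325-4082404, plus strand): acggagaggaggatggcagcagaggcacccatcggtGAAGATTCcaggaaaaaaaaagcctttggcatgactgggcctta
Dnaja4 (chr9:54699496-54699525, plus strand): gcctcctggcgGAACCTTCcgccggcgccg
Hsph1 (chr5:149636351-149636380, minus strand): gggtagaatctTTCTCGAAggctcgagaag
Hspd1 (chr1:55088048-55088077, minus strand): cTTCCGGAAggTTCTAGAAcggaccgtggc

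GAANNTTC stood in the windows of 14 of the 60 members (23.3%), against 9.04% of 27025 genes with a window, and TTCNNGAA in 6 (10%), against 9.60%. A run of 3 alternating units (GAA, TTC and GAA, or TTC, GAA and TTC, with NN between neighbours), read on both strands, stood in 4 members (6.67%), Dnajb6, Hspd1, Hspe1 and Hsph1, against 0.662% of genes. Such a run holds both shorter motifs, so the counts overlap. The windows of Hspd1 and Hspe1 overlap as well (chr1:55087883-55088182 and chr1:55087898-55088197). Their matches are the same letters read on opposite strands, so each of these counts holds that site for both genes. The stretch printed for Hspa1b was the same, letter for letter, in the window of its neighbour Hspa1a (chr17:34972217-34972296, minus strand). Those 2 windows differed at 4 of 300 bases. Of the 14 members with GAANNTTC, 3 rose and 5 fell after injury under vehicle, 4 did not pass the test and 2 were not tested, where 48.0% of all tested genes passed (limma, adjusted p under 0.05), 23.6% upward and 24.4% downward.

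The ER stress response element, CCAAT and CCACG with 9 free bases between them, searched on both strands, stood in the windows of 3 members (5%), against 0.137% of genes. All 3 make chaperones of the ER. Capitals mark the ends of the element, which lies on the opposite strand in the stretch of Hsp90b1.
Hspa5 (chr2:34772019-34772048, plus strand): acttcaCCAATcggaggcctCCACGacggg
Hsp90b1 (chr10:86705510-86705589, minus strand): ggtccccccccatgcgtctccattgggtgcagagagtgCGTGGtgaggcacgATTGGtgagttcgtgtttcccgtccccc
Dnajc3 (chr14:118937796-118937875, plus strand): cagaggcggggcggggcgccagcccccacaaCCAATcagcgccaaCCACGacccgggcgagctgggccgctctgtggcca

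These matches are letters in a window and not measured binding. In the injury comparisons, Hsp90b1 and Dnajc3 fell and Hspa5 did not pass the test.

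The values scale reads to the size of the library, with no gene length divided out, and are called levels here. Of the 74 members, 68 reached a level of 0.5 in 3 or more libraries and were tested. Dnajb13, Dnajb7, Dnajb8, Dnajc5g, Hspb3 and Hspb9 were not, and the highest level of any of them in any library was 0.393. Dnajb8 and Dnajc5g were each at 0 reads in 10 of 12 libraries, where a count of 0 allows a level of up to 0.0391 to 0.0597, by library. Libraries held 40938034 to 62501969 recovered reads. In a principal component analysis the first component, with 76.4% of the variance, separated injured from intact libraries. On the second, replicate 1 of PBS.SNC stood apart at 23.6 against -11.8 to 12.5 for the other libraries. That library was the highest of its group in 44 of the 68 tested members (64.7%), against 42.7% of all tested genes. The counts of members called are therefore given with and without it, as is each call that it decided. Injured libraries carried the injury genes Atf3 and Sprr1a, with log2 changes under vehicle of 5.47 and 8.17. Markers of sensory neurons were high in every library, with summed levels of 8237 to 11239 over 7 genes, of which 2 rose and 3 fell under vehicle. Of the other lists of cell markers, 2 of 5 genes of satellite glia, 2 of 5 of fibroblasts and 1 of 4 of endothelium rose under vehicle, 1 of 4 of smooth muscle and pericytes fell, and 0 of 5 of Schwann cells passed the test.

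Per kilobase of merged exons, the constitutive chaperones led in intact ganglia. In PBS, Hsp90ab1, the constitutive Hsp90, stood at 922 ± 40.6 (mean ± SD, n = 3, as for all such values), Hspa8, the constitutive Hsp70, at 479.9 ± 7.62 and Hsp90aa1, the inducible Hsp90, at 319.9 ± 15.1 per kilobase. Hspb1 at 166 ± 17.6 and Hspb8 at 146 ± 6.00 followed, with overlapping ranges of mean ± SD. Within each PBS library Hspb1 was the higher, at 1.07 to 1.22 times Hspb8. These were the 5 members at 100 or more per kilobase. Next came the mitochondrial chaperonin Hspd1 at 77.9 ± 2.36, the atypical Hsp70 Hspa12a at 76.1 ± 3.58 and the ER Hsp70 Hspa5 at 74.5 ± 8.12, whose ranges of mean ± SD overlapped. In all, 27 members stood at 10 to under 100, 29 at 1 to under 10, and 13 under 1. In PBS.SNC, Hspb1 reached 441 ± 49.8 per kilobase beside 456 ± 24.7 for Hspa8, which did not differ beyond their spread. These genes differ in the sequence they share with others. Of the 75-base stretches of the longest transcript, 53.1% of Hsp90aa1, 47.3% of Hspb1, 41.3% of Hspa8 and 33.7% of Hspd1 occur in other transcripts. For Hsp90ab1 the share was 0.736%, and for Hspb8, Hspa12a and Hspa5 it was 0%. How reads of shared stretches were counted is unknown, so this order and the per-kilobase ratios below are uncertain for genes with large shares. All 74 members held 1.42% of the summed level in PBS, 1.36% in IPA, 1.41% in PBS.SNC and 1.34% in IPA.SNC.

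**Figure D1:**
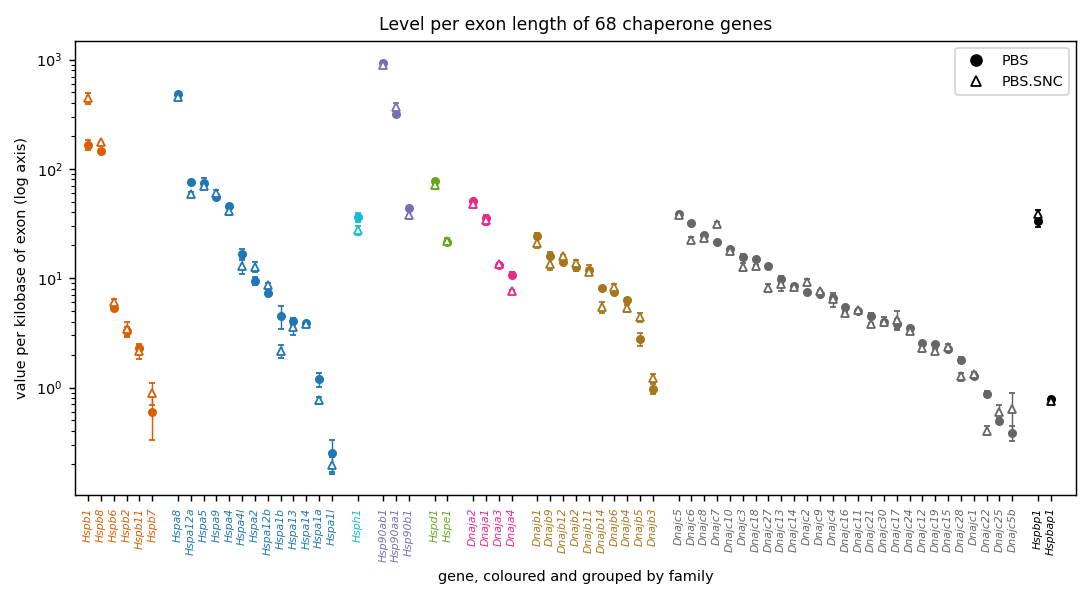
Level per kilobase of merged exons (log axis) of the members, with circles for PBS and triangles for PBS.SNC, each the mean of 3 libraries with its SD. Hsp90ab1 and Hspa8 lead, and Hspb1 moves from 166 to 441 per kilobase between the groups.

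At 3 days after nerve crush, the members moved in both directions and mostly by little. Under vehicle (PBS.SNC against PBS), 10 of 68 tested members rose and 20 fell, while 48.0% of all 15603 tested genes passed the same test (limma, adjusted p under 0.05 over all tested genes), 23.6% upward and 24.4% downward. Under IPA (IPA.SNC against IPA), 11 rose and 20 fell, against a background of 43.6%, with 21.2% upward and 22.5% downward. The members' 44.1% and 45.6% past the test were near those backgrounds, so being called was not particular to them. Their median log2 change was -0.06 under vehicle and -0.03 under IPA, and that of all genes -0.005 and -0.02. Past 1.5-fold in either direction stood 6 members under vehicle and 5 under IPA (12.8% and 11.3% of all tested genes did), and past 2-fold Hspb1 alone in each, all on the log2(value + 0.5) scale. By the ratio of mean levels, which has no offset, Dnajc22 (0.461 under vehicle and 0.481 under IPA) and Hspa1b (0.482 under vehicle) also fell past 2-fold. Without replicate 1 of PBS.SNC, 36 members were past the test under vehicle, 10 upward and 26 downward, and 33 under IPA. The share of all genes called without that library is not given here, so these counts cannot be read as particular to the members. Under vehicle 7 members gained a call without that library: Dnaja1 (log2 change -0.15, adjusted p = 0.0213 by limma), Dnaja2 (-0.16, 0.00857), Dnajc13 (-0.25, 0.00358), Hspa13 (-0.29, 0.0121), Hspa4 (-0.20, 0.00470), Hspd1 (-0.20, 0.00382) and Hspbp1 (0.28, 0.0193). Hsp90aa1 lost its call (0.14, 0.0507). Under IPA 2 gained one, Dnajb1 (-0.18, 0.0249) and Hspb2 (0.25, 0.0463). In these bulk samples fewer cells of a type and less RNA per cell cannot be told apart. Levels of 7 macrophage markers summed to 31.0 to 37.0 in PBS, 29.7 to 43.6 in IPA, 108 to 112 in PBS.SNC and 97.6 to 119 in IPA.SNC, 7 of 7 rose under vehicle and 6 of 7 under IPA, and none was at 0. Their part in the members' changes was not tested.

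Both injury comparisons called largely the same members: 9 rose in both (19.1% of all genes did), 17 fell in both (19.4%), and 0 were called in opposite directions. Dnajb1, Dnajb9, Dnajb12 and Dnajc19 were past the test under vehicle only, and Dnajc8, Hspa1l, Hspa4, Hspa9 and Hspb7 under IPA only. The difference between the injury effects passed the test for none of these 9, as given below with the IPA comparisons. A set of 33 members passed in neither comparison. For 32 of those the 95% interval of the change lay within 1.5-fold in either direction under vehicle, and likewise for 32 under IPA. Of the 33, 15 passed the test under vehicle in at least 1 alternative setting and 11 under IPA.

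**Figure D2:**
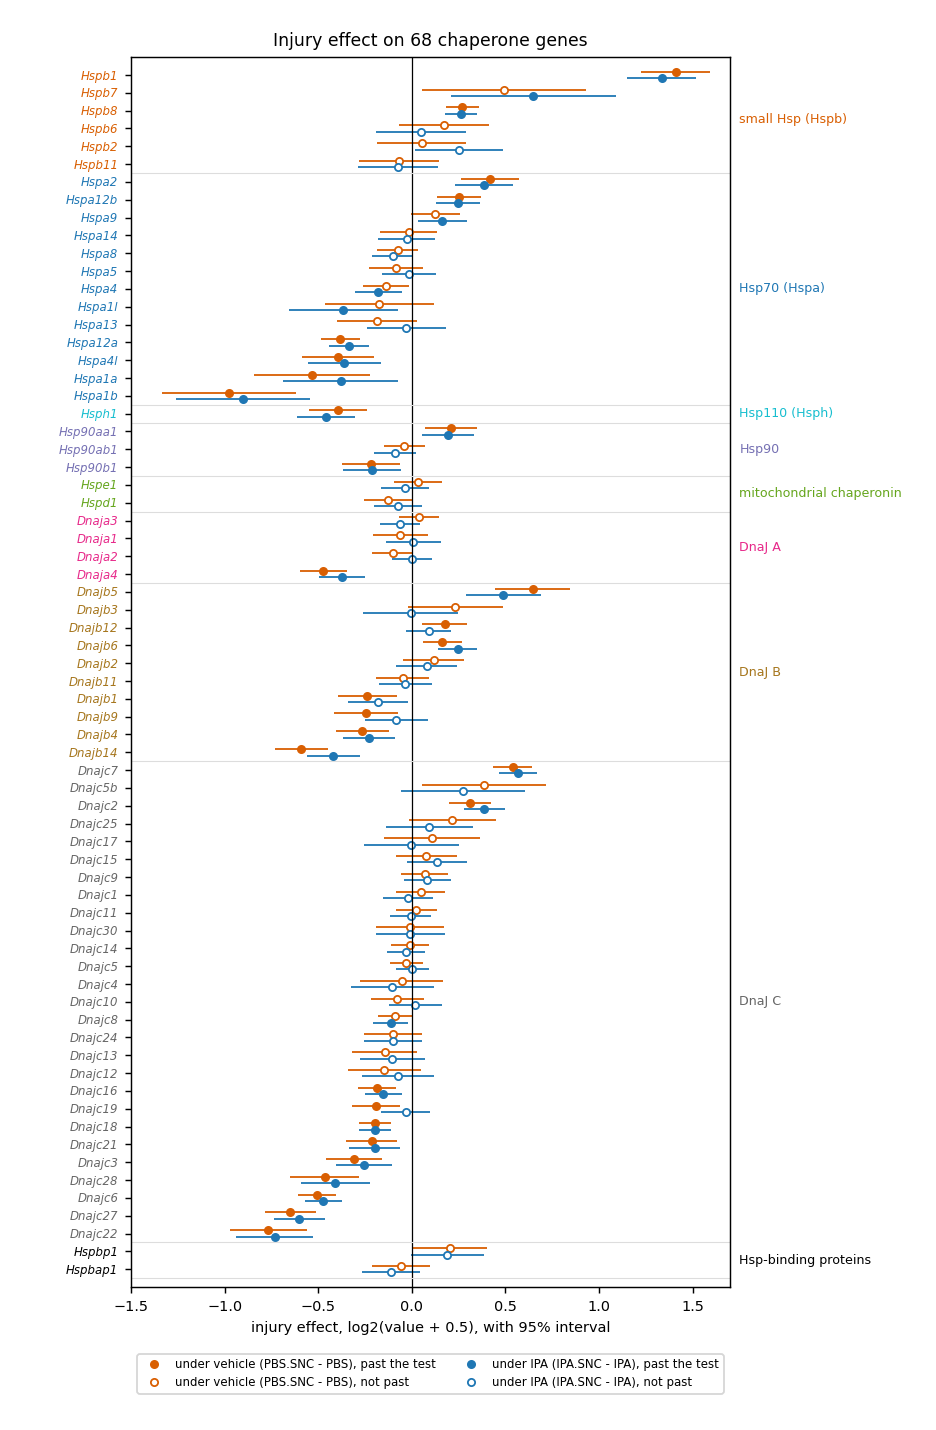
Log2 change after injury of the 68 tested members under vehicle (PBS.SNC against PBS, orange) and under IPA (IPA.SNC against IPA, blue), with 95% intervals, filled where adjusted p was under 0.05. Hspb1 lies apart at 1.41 and 1.33, and most other members lie within 1.5-fold.

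Small heat shock proteins were the family in which called members moved upward only. Of 6 tested, 2 rose under vehicle and 3 under IPA, and 0 fell. Of all tested genes 23.6% rose and 24.4% fell under vehicle, and 21.2% and 22.5% under IPA. With 6 genes, these counts do not set the family apart. Hspb1 (ENSMUSG00000004951, chr5:135887919-135889563, plus strand), whose protein holds unfolding proteins and binds actin, had levels of 157, 164 and 191 in PBS, 192, 199 and 196 in IPA, 397, 496 and 469.8 in PBS.SNC and 529, 497 and 457 in IPA.SNC. All 6 injured libraries lay above all 6 intact ones, the lowest of them at 397 against 199 for the highest intact library. Its log2 change was 1.41 ± 0.09 (SE) under vehicle, adjusted p = 1.33e-08 by limma, and 1.33 ± 0.09 under IPA, adjusted p = 2.68e-08. Of the 75-base stretches of its longest transcript, 47.3% also occur in other transcripts, mainly its pseudogene Hsp25-ps1, whose level averaged 0.644 in PBS and 1.92 in PBS.SNC. Reads of that copy were few beside those of Hspb1.

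Hspb8, a partner of Bag3 in selective autophagy, had levels of 278, 277 and 298 in PBS, 283, 293 and 289 in IPA, 347, 342 and 339 in PBS.SNC and 352, 342 and 345 in IPA.SNC. Injured libraries lay above intact ones without overlap, and the log2 change was 0.27 ± 0.04 under vehicle (limma, adjusted p = 9.06e-05) and 0.26 ± 0.04 under IPA (adjusted p = 0.000127). With GC and length trends removed these were 0.12 (adjusted p = 0.00725) and 0.16 (0.00121). Per kilobase, the ratio of Hspb1 to Hspb8 went from 1.13 ± 0.0744 in PBS to 2.51 ± 0.308 in PBS.SNC, and from 1.28 ± 0.00239 in IPA to 2.503 to 2.84 over the libraries of IPA.SNC.

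Hspb7, a small heat shock protein of heart and skeletal muscle, was far lower, at 2.52, 1.31 and 1.17 in PBS, 0.725, 1.102 and 1.18 in IPA, 3.02, 2.49 and 1.93 in PBS.SNC and 1.99, 1.88 and 1.64 in IPA.SNC. Replicate 1 of PBS was above replicates 2 and 3 of PBS.SNC, so the groups overlapped under vehicle but not under IPA. The log2 change was 0.49 ± 0.20 under vehicle (limma, adjusted p = 0.0613) and 0.65 ± 0.20 under IPA (adjusted p = 0.0195). Hspb7 was past the test under vehicle without replicate 1 of PBS (0.76, adjusted p = 0.00324) or without replicate 3 of PBS.SNC (0.63, 0.0360), and not past it under IPA without replicate 1 of IPA (0.51, 0.0913), replicate 1 of IPA.SNC (0.60, 0.0603) or replicate 2 of IPA.SNC (0.63, 0.0544). The summed level of 10 skeletal muscle markers was 74.8 to 119 in PBS, 37.5 to 88.5 in IPA, 95.7 to 294 in PBS.SNC and 49.7 to 293 in IPA.SNC, and 0 of the 9 tested passed the test in either comparison. None was at 0 in every library, and their part in the values of Hspb7 was not tested.

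Of the other small heat shock genes, Hspb6, which binds regulators of smooth muscle, stood at 12.4 ± 0.274 in PBS, 12.8 ± 0.0821 in IPA, 14.04 ± 0.753 in PBS.SNC and 13.5 ± 2.88 in IPA.SNC. Hspb2, found mainly in muscle, stood at 2.75 ± 0.262 in PBS, 2.96 ± 0.289 in IPA, 2.88 ± 0.457 in PBS.SNC and 3.62 ± 0.164 in IPA.SNC. Hspb11, a subunit of the machinery of intraflagellar transport, stood at 4.72 ± 0.283 in PBS, 4.75 ± 0.203 in IPA, 4.50 ± 0.726 in PBS.SNC and 4.49 ± 0.186 in IPA.SNC. None of these passed the test in either injury comparison. The exons of Hspb2 overlap those of its neighbour Cryab, another small heat shock gene, and 25.5% of the 75-base stretches of Hspb2 occur in other transcripts. Cryab averaged 118 in PBS and 116 in PBS.SNC. Hspb3 ranged from 0 to 0.133 and Hspb9 from 0.0948 to 0.381.

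The Hsp70 genes split by member. Under vehicle 2 of 13 rose and 4 fell, and under IPA 3 rose and 6 fell. The shares of all tested genes were 23.6% upward and 24.4% downward under vehicle, and 21.2% and 22.5% under IPA. Hspa1b (ENSMUSG00000090877, chr17:34956436-34959238, minus strand), 1 of 2 neighbouring genes of the stress-inducible Hsp70, had levels of 9.23, 14.5 and 13.97 in PBS, 11.1, 10.8 and 9.08 in IPA, 5.89, 6.95 and 5.30 in PBS.SNC and 6.32, 5.47 and 4.22 in IPA.SNC. All injured libraries were below all intact ones, at the reverse of the direction of Hspb1. Its log2 change was -0.98 ± 0.17 under vehicle (limma, adjusted p = 0.000276) and -0.90 ± 0.17 under IPA (adjusted p = 0.000605). On this log2(value + 0.5) scale these were the lowest values of a tested member, while by the ratio of mean levels Dnajc22 was lower (0.461 against 0.482 under vehicle, 0.481 against 0.517 under IPA).

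Hspa1a (ENSMUSG00000091971, chr17:34969190-34972156, minus strand), the near-identical neighbour, had levels of 3.18, 4.08 and 3.29 in PBS, 3.23, 2.67 and 2.39 in IPA, 2.45, 2.21 and 2.13 in PBS.SNC and 2.54, 2.00 and 1.55 in IPA.SNC. Injured and intact libraries did not overlap under vehicle and did under IPA. The log2 change was -0.53 ± 0.14 under vehicle (limma, adjusted p = 0.00723) and -0.38 ± 0.14 under IPA (adjusted p = 0.0453). That call under IPA ended without any 1 of 8 libraries (replicates 1 and 3 of PBS, 1 and 2 of IPA, 2 and 3 of PBS.SNC, 2 and 3 of IPA.SNC), with log2 changes of -0.40 to -0.24 and adjusted p of 0.0526 to 0.191, and also by edgeR (0.0739) and DESeq2 (0.0648). Hspa1l, the third gene of this cluster, known from the testis, had levels of 0.848, 0.455 and 0.563 in PBS, 0.662, 0.694 and 0.612 in IPA, 0.418, 0.454 and 0.586 in PBS.SNC and 0.443, 0.468 and 0.291 in IPA.SNC. It changed on the log2 scale by -0.17 ± 0.14 under vehicle (limma, adjusted p = 0.307) and -0.37 ± 0.14 under IPA (adjusted p = 0.0418). Under IPA it was not past the test without any 1 of replicates 1, 2 and 3 of IPA or 1 and 3 of IPA.SNC (log2 change -0.40 to -0.27, adjusted p 0.0592 to 0.150). The 3 genes share sequence: 61.7% of the 75-base stretches of Hspa1a, 55.8% of those of Hspa1b and 71.1% of those of Hspa1l occur in other transcripts, mainly each other's and Gm10501, so how reads were divided among them is uncertain. Per kilobase, Hspa1b was 0.00933 ± 0.00214 of Hspa8 in PBS and 0.00475 ± 0.000740 in PBS.SNC.

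Hspa2, an Hsp70 best known from the testis, had levels of 23.9, 23.9 and 27.4 in PBS, 27.1, 28.9 and 28.8 in IPA, 29.96, 35.8 and 35.1 in PBS.SNC and 37.9, 36.5 and 36.6 in IPA.SNC. It was higher in every injured library, with a log2 change of 0.42 ± 0.07 under vehicle (limma, adjusted p = 0.000312) and 0.38 ± 0.07 under IPA (adjusted p = 0.000690). Hspa12b, an atypical Hsp70 of endothelial cells, rose as well, from 26.8 ± 1.06 in PBS to 32.0 ± 1.20 in PBS.SNC (0.25 ± 0.05, adjusted p = 0.00174 by limma) and from 28.7 ± 1.29 in IPA to 34.1 ± 1.13 in IPA.SNC (0.24 ± 0.05, adjusted p = 0.00243). Of 4 endothelial markers 1 rose under vehicle, and 1 under IPA. They summed to 50.9 to 55.7 in PBS, 57.9 to 66.2 in PBS.SNC, 52.0 to 61.8 in IPA and 58.4 to 65.2 in IPA.SNC, and the sums overlapped under IPA. The part of endothelial cells in Hspa12b was not tested. Hspa12a, its relative best known from brain, had levels of 707, 728 and 664 in PBS, 631, 640.3 and 664 in IPA, 568, 520.2 and 524 in PBS.SNC and 504, 508 and 520.4 in IPA.SNC. It was lower in every injured library, with a log2 change of -0.38 ± 0.05 under vehicle (limma, adjusted p = 2.18e-05) and -0.34 ± 0.05 under IPA (adjusted p = 8.00e-05).

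**Figure D3:**
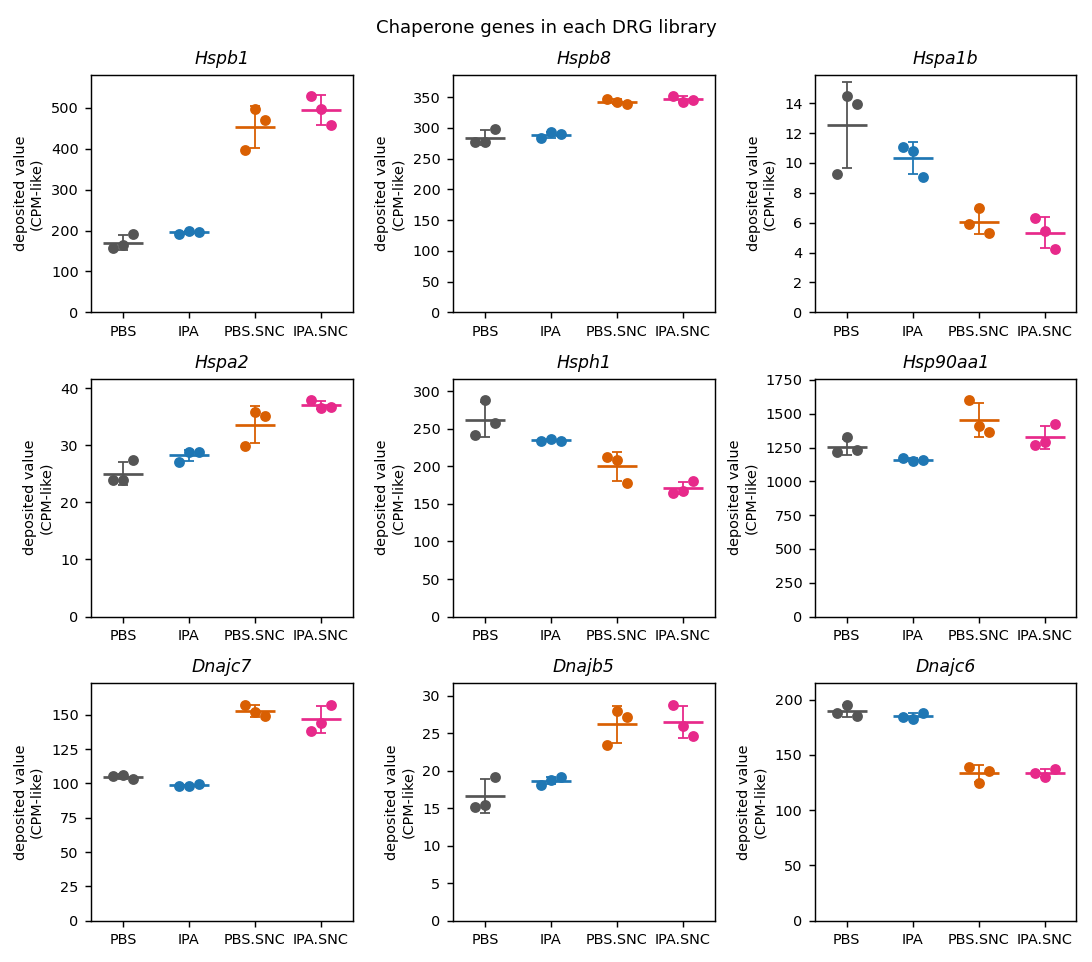
Level in each library (dots), with group mean (bar) and SD (error bar), of 9 members in the 4 groups. Hspb1, Hspb8, Hspa2, Hsp90aa1, Dnajc7 and Dnajb5 sit higher in the injured groups, and Hspa1b, Hsph1 and Dnajc6 lower.

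Of the 3 exchange factors of the Hsp110 kind, 2 fell in both comparisons and Hspa4 under IPA. Hsph1, which resets Hsp70 and dissolves aggregates with it, had levels of 242, 288 and 257 in PBS, 234, 237 and 234 in IPA, 213, 209 and 178 in PBS.SNC and 165, 167 and 180.1 in IPA.SNC. Injured libraries lay below intact ones without overlap, with a log2 change of -0.39 ± 0.07 under vehicle (limma, adjusted p = 0.000501) and -0.46 ± 0.07 under IPA (adjusted p = 0.000155). Hspa4l, of the same kind, had levels of 196, 219 and 179 in PBS, 169, 165 and 172 in IPA, 177, 144 and 133 in PBS.SNC and 127, 130.1 and 137 in IPA.SNC. Within each comparison its injured libraries were lower, while replicate 1 of PBS.SNC lay above the intact IPA libraries. The values came with log2 changes of -0.39 ± 0.09 under vehicle (limma, adjusted p = 0.00248) and -0.36 ± 0.09 under IPA (adjusted p = 0.00507), the former -0.26 with GC and length trends removed. Hspa4, the most general member of the group, stood at 251 ± 5.11 in PBS, 242 ± 3.33 in IPA, 229 ± 17.7 in PBS.SNC and 214 ± 13.7 in IPA.SNC. The log2 change of Hspa4 was -0.14 ± 0.06 under vehicle (limma, adjusted p = 0.0614) and -0.18 ± 0.06 under IPA (adjusted p = 0.0218). Under vehicle Hspa4 was past the test without replicate 1 of PBS.SNC (-0.20, adjusted p = 0.00470) or replicate 3 of IPA.SNC (-0.14, 0.0398), and by DESeq2 (0.0370). Under IPA it was not past it without replicate 1 (-0.17, 0.0716) or 2 (-0.18, 0.0501) of IPA, or replicate 1 (-0.14, 0.0996) or 2 (-0.17, 0.0638) of IPA.SNC.

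Housekeeping Hsp70 genes stayed outside these calls. Hspa8, which also strips clathrin from vesicles, stood at 2064 ± 32.8 in PBS, 1967 ± 24.4 in IPA, 1960.0 ± 106 in PBS.SNC and 1833 ± 81.0 in IPA.SNC. Hspa5 (BiP), the Hsp70 of the ER, stood at 315 ± 34.3 in PBS, 277 ± 10.8 in IPA, 296 ± 6.84 in PBS.SNC and 275 ± 12.4 in IPA.SNC. Hspa13, a microsomal relative, ranged from 20.5 to 29.9 and Hspa14, a ribosome-associated relative, from 15.0 to 18.04 over the 12 libraries. None of these passed in either injury comparison. Hspa9 (mortalin), the mitochondrial Hsp70, stood at 237 ± 9.20 in PBS, 216 ± 5.24 in IPA, 259 ± 19.9 in PBS.SNC and 242 ± 16.8 in IPA.SNC. Its log2 change was 0.12 ± 0.06 under vehicle (limma, adjusted p = 0.107) and 0.16 ± 0.06 under IPA (adjusted p = 0.0452). That last call ended without any 1 of 7 libraries (replicates 1 and 2 of PBS, 1, 2 and 3 of IPA, 2 and 3 of IPA.SNC), at log2 changes of 0.11 to 0.18 and adjusted p of 0.0520 to 0.174. The mitochondrial chaperonin pair, whose genes lie head to head on chromosome 1, was not past the test: Hspd1 stood at 206 ± 6.25 in PBS, 187 ± 0.842 in IPA, 189 ± 16.6 in PBS.SNC and 178 ± 9.29 in IPA.SNC. Hspe1, its lid, stood at 31.8 ± 1.97 in PBS, 33.1 ± 1.32 in IPA, 32.6 ± 1.89 in PBS.SNC and 32.3 ± 0.845 in IPA.SNC. The binding proteins Hspbp1, an exchange factor of Hsp70 (57.0 to 90.3 over the 12 libraries), and Hspbap1 (6.92 to 8.51) also did not pass.

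Of the 3 Hsp90 genes, 1 rose, 1 fell and 1 did not pass in both comparisons. Hsp90aa1, the inducible cytosolic form, had levels of 1218, 1326 and 1229 in PBS, 1175, 1149 and 1159 in IPA, 1599, 1406 and 1365 in PBS.SNC and 1267, 1292 and 1424 in IPA.SNC. Injured libraries lay above intact ones in both comparisons, with replicate 1 of PBS.SNC the highest of the 12. The log2 change was 0.21 ± 0.06 under vehicle (limma, adjusted p = 0.0153) and 0.19 ± 0.06 under IPA (adjusted p = 0.0266). The vehicle call ended without replicate 1 of PBS (0.19, adjusted p = 0.0630) or replicate 1 of PBS.SNC (0.14, 0.0507). The IPA call ended without replicate 1 (0.20, 0.0548), 2 (0.18, 0.0739) or 3 (0.19, 0.0670) of IPA, or replicate 3 of IPA.SNC (0.14, 0.101). Of its 75-base stretches, 53.1% occur in other transcripts, mainly Gm12346, which averaged 5.82 in PBS and 7.22 in PBS.SNC.

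Hsp90ab1, the constitutive cytosolic form and the member with the highest level, stood at 2765 ± 122 in PBS, 2768 ± 75.9 in IPA, 2688 ± 87.4 in PBS.SNC and 2601 ± 92.5 in IPA.SNC and did not pass in either comparison. Per kilobase, the ratio of Hsp90aa1 to Hsp90ab1 was 0.347 ± 0.0211 in PBS, 0.320 ± 0.00880 in IPA, 0.414 ± 0.0468 in PBS.SNC and 0.389 ± 0.0116 in IPA.SNC. Hsp90b1 (Grp94), the Hsp90 of the ER, had levels of 169, 184 and 180.2 in PBS, 149, 158 and 162 in IPA, 167, 152 and 139 in PBS.SNC and 123, 135 and 147 in IPA.SNC. Injured libraries lay below intact ones in both comparisons, with log2 changes of -0.22 ± 0.07 under vehicle (limma, adjusted p = 0.0212) and -0.21 ± 0.07 under IPA (adjusted p = 0.0278). The vehicle call ended without replicate 2 (-0.19, adjusted p = 0.0779) or 3 (-0.21, 0.0534) of PBS or replicate 3 of PBS.SNC (-0.16, 0.108). The IPA call ended without replicate 2 (-0.20, 0.0732) or 3 (-0.19, 0.0971) of IPA, or replicate 1 (-0.15, 0.129) or 2 (-0.21, 0.0667) of IPA.SNC.

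DnaJ genes made up 41 of the 68 tested members and 14 of the 20 falls under vehicle. Of these 41, 5 rose and 14 fell under vehicle, and 4 rose and 12 fell under IPA. Among all tested genes 23.6% rose and 24.4% fell under vehicle, and 21.2% and 22.5% under IPA. By class the vehicle counts were 0 up and 1 down of 4 DnaJ A, 3 up and 4 down of 10 DnaJ B, and 2 up and 9 down of 27 DnaJ C genes. Dnajc7, which carries tetratricopeptide repeats and passes clients between Hsp70 and Hsp90, had levels of 106, 106 and 103 in PBS, 98.4, 98.5 and 99.3 in IPA, 158, 152 and 149 in PBS.SNC and 139, 144 and 157 in IPA.SNC. Every injured library was above every intact one, with a log2 change of 0.54 ± 0.05 under vehicle (limma, adjusted p = 6.47e-07) and 0.57 ± 0.05 under IPA (adjusted p = 4.54e-07). Dnajb5, an Hsp40-type partner of Hsp70, had levels of 15.1, 15.4 and 19.2 in PBS, 18.2, 18.8 and 19.1 in IPA, 23.4, 28.0 and 27.2 in PBS.SNC and 28.8, 25.9 and 24.7 in IPA.SNC. Its injured libraries were likewise higher without overlap, by 0.65 ± 0.09 under vehicle (limma, adjusted p = 6.38e-05) and 0.49 ± 0.09 under IPA (adjusted p = 0.000768). Dnajc2, which acts at the ribosome exit with Hspa14, stood at 37.6 ± 0.324 in PBS, 35.7 ± 0.532 in IPA, 46.7 ± 2.90 in PBS.SNC and 46.9 ± 1.94 in IPA.SNC. It rose by 0.31 ± 0.05 under vehicle (adjusted p = 0.000247 by limma) and 0.39 ± 0.05 under IPA (adjusted p = 3.90e-05). Dnajc2 is outside the rule for naming DnaJ genes and was chosen after its values were seen, as were Dnajb6, Dnajb12, Dnajc8, Dnajc16, Dnajc18 and Dnajc21 below.

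Dnajb6, which keeps polyglutamine proteins from aggregating, stood at 45.1 ± 1.13 in PBS, 43.6 ± 1.00 in IPA, 50.6 ± 2.57 in PBS.SNC and 51.8 ± 1.06 in IPA.SNC. It rose by 0.16 ± 0.05 under vehicle (adjusted p = 0.0129 by limma) and 0.25 ± 0.05 under IPA (adjusted p = 0.000922). Its vehicle call ended without replicate 1 of PBS (0.14, adjusted p = 0.0557) and with GC and length trends removed (0.09, 0.131). Dnajb12, anchored in the ER membrane, rose under vehicle by 0.18 ± 0.06 (adjusted p = 0.0193 by limma). That call ended without replicate 1 (0.17, 0.0576) or 2 (0.15, 0.0746) of PBS or replicate 2 of PBS.SNC (0.14, 0.0803), and with GC and length trends removed (0.09, 0.108), and under IPA the log2 change was 0.09 ± 0.06 (adjusted p = 0.218). Also, 39.5% of the 75-base stretches of Dnajb6 occur in other transcripts, mainly processed copies.

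Among the falls, Dnajc6 (auxilin) recruits Hsc70 to uncoat clathrin vesicles in neurons. Its levels were 188, 196 and 185 in PBS, 185, 183 and 188 in IPA, 139, 125 and 136 in PBS.SNC and 134, 129.8 and 137 in IPA.SNC. Injured libraries were lower without overlap, with log2 changes of -0.51 ± 0.05 under vehicle (limma, adjusted p = 8.80e-07) and -0.47 ± 0.05 under IPA (adjusted p = 2.04e-06). Its widely expressed homologue Gak, which does not carry a DnaJ name, stood at 114 ± 0.812 in PBS, 113 ± 1.41 in IPA, 133 ± 3.58 in PBS.SNC and 130.4 ± 1.80 in IPA.SNC. Gak rose by 0.23 ± 0.04 under vehicle (adjusted p = 0.000203 by limma) and 0.20 ± 0.04 under IPA (adjusted p = 0.000722). Dnajc5 (cysteine string protein), which guards proteins of synaptic vesicles, stood at 268 ± 5.64 in PBS, 252 ± 3.83 in IPA, 262 ± 11.4 in PBS.SNC and 252 ± 1.33 in IPA.SNC and was not past the test. Dnajc27, a small GTPase with a J domain, had levels of 65.3, 66.2 and 65.3 in PBS, 62.6, 60.5 and 64.0 in IPA, 45.0, 38.1 and 42.2 in PBS.SNC and 37.9, 41.6 and 43.4 in IPA.SNC. It was lower in all injured libraries, with log2 changes of -0.65 ± 0.06 under vehicle (limma, adjusted p = 1.58e-06) and -0.60 ± 0.06 under IPA (adjusted p = 3.75e-06).

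Dnajb14, a J protein of the ER membrane, had levels of 129, 129 and 125 in PBS, 112, 111 and 119 in IPA, 95.2, 75.4 and 84.8 in PBS.SNC and 84.4, 86.6 and 83.9 in IPA.SNC. Its injured libraries were lower without overlap, with log2 changes of -0.59 ± 0.07 under vehicle (limma, adjusted p = 6.43e-06) and -0.42 ± 0.07 under IPA (adjusted p = 0.000166). Dnajc22, a membrane J protein of low level, went from 1.62 ± 0.0984 in PBS to 0.748 ± 0.0665 in PBS.SNC and from 1.63 ± 0.0656 in IPA to 0.785 ± 0.0926 in IPA.SNC. It fell, with log2 changes of -0.77 ± 0.09 under vehicle (adjusted p = 1.58e-05 by limma) and -0.73 ± 0.09 under IPA (adjusted p = 2.78e-05). Dnajc28 went from 6.402 ± 0.403 in PBS to 4.50 ± 0.377 in PBS.SNC, a change of -0.47 ± 0.09 (adjusted p = 0.000504 by limma), and changed by -0.41 ± 0.09 under IPA (adjusted p = 0.00151).

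Dnaja4, a cytosolic J protein of the type A, had levels of 37.6, 41.1 and 36.8 in PBS, 34.3, 36.7 and 36.0 in IPA, 28.3, 27.4 and 27.1 in PBS.SNC and 27.5, 28.8 and 25.9 in IPA.SNC. It was lower in every injured library, with log2 changes of -0.47 ± 0.06 under vehicle (limma, adjusted p = 1.34e-05) and -0.37 ± 0.06 under IPA (adjusted p = 0.000129). Of its 75-base stretches 51.5% also lie in Wdr61, on the opposite strand, and whether counting used strand is not given in the sources used here. Wdr61 averaged 19.9 in PBS and 19.8 in PBS.SNC. The other type A genes, Dnaja1, Dnaja2 and Dnaja3, did not pass, and Dnaja1, the commonest cytosolic partner of its type, stood at 308 ± 12.8 in PBS, 286 ± 6.49 in IPA, 296 ± 33.6 in PBS.SNC and 287 ± 15.0 in IPA.SNC.

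Dnajb1, the classical inducible Hsp40, had levels of 75.8, 83.5 and 76.3 in PBS, 75.2, 71.0 and 68.5 in IPA, 73.5, 64.6 and 61.9 in PBS.SNC and 68.2, 63.8 and 57.5 in IPA.SNC. Its log2 change was -0.24 ± 0.07 under vehicle (limma, adjusted p = 0.0165) and -0.18 ± 0.07 under IPA (adjusted p = 0.0616), and the groups did not overlap in either. The vehicle call ended without replicate 2 of PBS (-0.19, adjusted p = 0.0762), replicate 2 of PBS.SNC (-0.22, 0.0543) or replicate 3 of PBS.SNC (-0.19, 0.0788). Under IPA Dnajb1 was past the test without replicate 1 of PBS.SNC (-0.18, 0.0249) or replicate 1 of IPA.SNC (-0.24, 0.0286). Dnajb4, a relative of Dnajb1, fell, with log2 changes of -0.26 ± 0.06 under vehicle (adjusted p = 0.00409 by limma) and -0.23 ± 0.06 under IPA (adjusted p = 0.0112). Without replicate 1 of IPA.SNC the latter was -0.17 (adjusted p = 0.0583).

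J proteins of the ER were also mixed. Dnajc3 (p58IPK), a co-chaperone of BiP, stood at 80.8 ± 5.49 in PBS, 72.0 ± 4.21 in IPA, 65.2 ± 5.92 in PBS.SNC and 60.3 ± 1.61 in IPA.SNC. It fell, with log2 changes of -0.31 ± 0.07 under vehicle (adjusted p = 0.00214 by limma) and -0.25 ± 0.07 under IPA (adjusted p = 0.00836). Dnajb9 (ERdj4) stood at 41.0 ± 3.245 in PBS, 37.3 ± 1.42 in IPA, 34.6 ± 4.03 in PBS.SNC and 35.2 ± 1.59 in IPA.SNC. Its log2 change was -0.25 ± 0.08 under vehicle (limma, adjusted p = 0.0193) and -0.08 ± 0.08 under IPA (adjusted p = 0.423), and the groups overlapped. The vehicle call ended without replicate 2 of PBS (-0.19, 0.0904), replicate 2 of PBS.SNC (-0.19, 0.0888) or replicate 3 of PBS.SNC (-0.21, 0.0736). Dnajb11 (ERdj3), a soluble partner of BiP, stood at 38.4 ± 4.14 in PBS, 36.6 ± 0.167 in IPA, 37.0 ± 1.35 in PBS.SNC and 35.7 ± 0.603 in IPA.SNC and did not pass.

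The remaining calls were small. Dnajc16 (-0.19 under vehicle, -0.15 under IPA), Dnajc18 (-0.20, -0.20) and Dnajc21, a factor of ribosome assembly (-0.21, -0.20), fell in both comparisons. Dnajc19, part of the mitochondrial import motor, changed by -0.19 under vehicle and was not past the test under IPA, where its value was -0.03. Dnajc8, a splicing factor, fell by 0.11 on the log2 scale under IPA (limma, adjusted p = 0.0484). Single libraries decided these calls, except those of Dnajc18 in both comparisons and of Dnajc16 under vehicle. Without replicate 2 or 3 of PBS.SNC, Dnajc19 stood at adjusted p = 0.0507 and 0.0673 by limma, and without replicate 3 of PBS, Dnajc21 at 0.0527 under vehicle. Under IPA, Dnajc21 lost its call without replicate 3 of IPA (0.0705) or replicates 1 (0.0857) or 2 (0.0756) of IPA.SNC, and Dnajc16 without replicate 1 of IPA (0.0643) or replicates 1 (0.0573) or 2 (0.0636) of IPA.SNC. Dnajc8 lost its call without any 1 of 9 libraries (replicates 1 and 2 of PBS, 2 and 3 of PBS.SNC, 1, 2 and 3 of IPA, 1 and 2 of IPA.SNC), at adjusted p of 0.0561 to 0.163.

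**Figure D4:**
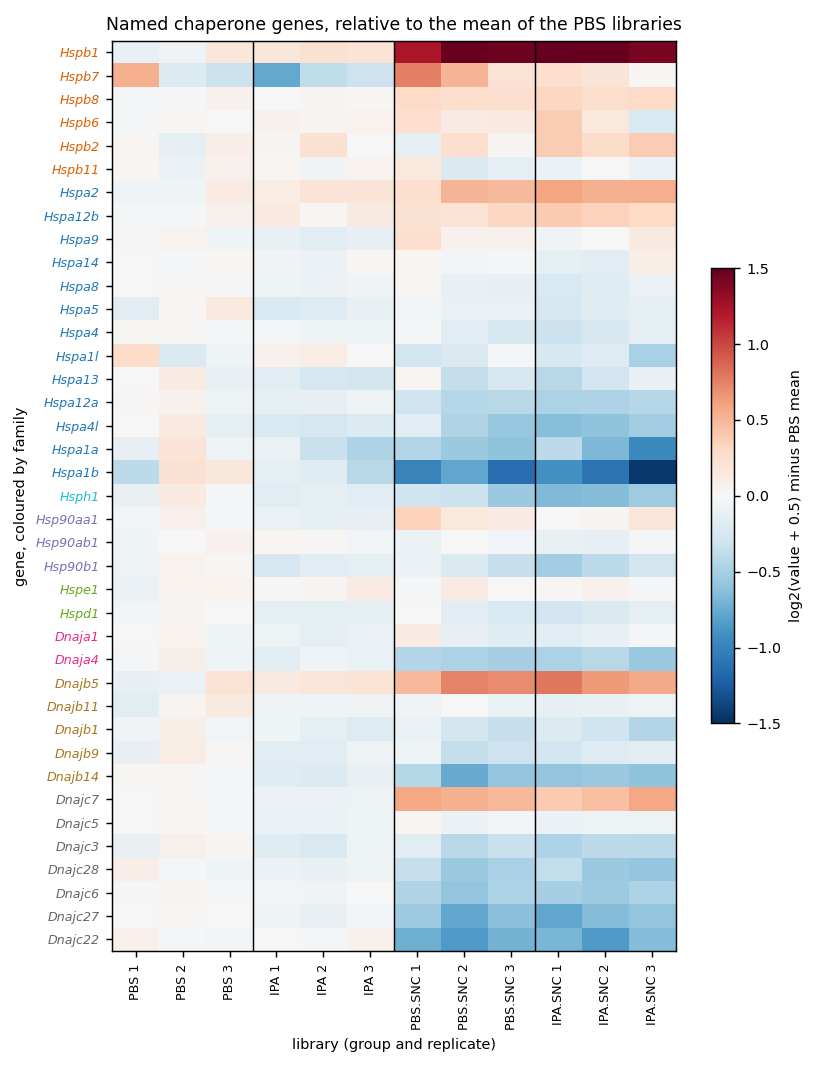
Log2 level of 39 named members in the 12 libraries (columns, by group), as the difference from the mean of the PBS libraries. Hspb1 is the row with the largest positive differences in the injured libraries and Hspa1b the row with the largest negative ones, on the log2(value + 0.5) scale plotted.

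Genes that work with these chaperones were counted from 7 lists of known partners, 79 genes in all, of which 75 were tested. Under vehicle 21 rose and 11 fell, and under IPA 20 rose and 10 fell, against the same backgrounds of 48.0% and 43.6%. By direction these were 23.6% upward and 24.4% downward under vehicle, and 21.2% and 22.5% under IPA. The same shares stand beside each list below. The median log2 change of the partner genes was 0.07 in each comparison. With trends on GC content and transcript length removed within each library, the vehicle split was 22 up and 21 down. The share of all genes called in that setting is not given here. Of 4 tested genes of heat shock factors and their regulators, 1 rose and 0 fell under vehicle, and 0 rose and 1 fell under IPA. The regulator Hsbp1, which binds HSF1, rose by 0.14 ± 0.04 under vehicle (adjusted p = 0.0140 by limma). The factor Hsf4 stood at 37.3 ± 2.58 in PBS and 33.5 ± 4.22 in PBS.SNC and did not pass. Hsf1, the main heat shock factor, had a log2 change of -0.03 ± 0.07 under vehicle (limma, adjusted p = 0.707) and fell under IPA, with a log2 change of -0.20 ± 0.07 (adjusted p = 0.0308).

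Of 18 Hsp90 co-chaperones 6 rose and 4 fell under vehicle, and 5 rose and 4 fell under IPA. Fkbp4, which couples Hsp90 to steroid receptors, fell, with log2 changes of -0.48 ± 0.05 under vehicle (adjusted p = 4.70e-06 by limma) and -0.53 ± 0.05 under IPA (adjusted p = 2.12e-06). Stip1 (Hop), which joins Hsp70 to Hsp90, fell, with log2 changes of -0.22 ± 0.05 and -0.29 ± 0.05. Unc45b, a myosin chaperone of striated muscle, was at 1.03 ± 0.229 in PBS and 2.39 ± 0.202 in PBS.SNC and rose by 0.92 ± 0.13 and 1.02 ± 0.13. The sums of muscle markers given beside Hspb7 apply here too, and their part in Unc45b was not tested. Of 12 Hsp70 co-chaperones 3 rose and 4 fell under vehicle, and 2 rose and 3 fell under IPA. The exchange factors Bag1 (0.34 and 0.29) and Grpel1, of mitochondria (0.32 and 0.28), rose in both, and Bag2 (-0.34 and -0.35) fell.

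Among 14 genes of the cytosolic chaperonin CCT, which folds actin and tubulin, and of prefoldin, 5 rose and 0 fell under vehicle, and 7 rose and 0 fell under IPA. Cct3 rose by 0.27 ± 0.05 under vehicle and 0.25 ± 0.05 under IPA, Cct5 by 0.30 ± 0.06 and 0.25 ± 0.06, and Cct8 by 0.27 ± 0.05 and 0.31 ± 0.05. Of 14 ER folding genes 3 rose in each comparison, and under vehicle 1 fell, Creld2 (-0.26), named after its value was seen. The 3 that rose were P4hb, a disulfide isomerase (0.29 and 0.27), the transcription factor Xbp1 (0.24 and 0.26) and Sdf2l1, a BiP cofactor (0.34 and 0.42). Of 9 mitochondrial chaperones and proteases 2 rose and 1 fell in each comparison. Trap1, the mitochondrial Hsp90, fell, with log2 changes of -0.22 ± 0.04 under vehicle and -0.19 ± 0.04 under IPA, and the protease Clpp rose by 0.34 ± 0.08 and 0.25 ± 0.08.

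No member passed the test for IPA in intact ganglia, after injury or averaged over both, nor for the difference between the injury effects. Limma and edgeR each called 0 members and 0 of 15603 genes (0.0%) in these 4 comparisons. DESeq2 called 3 genes without injury, 15 after injury, 3 for the difference and 414 for the average. Its calls held members for the average only, 6 in number and all lower with IPA: Hsph1 (log2 change -0.20, DESeq2 adjusted p = 0.0201), Hsp90b1 (-0.19, 0.0239), Dnajb4 (-0.15, 0.0374), Hspa4l (-0.22, 0.0374), Dnajc13, which acts on endosomes (-0.20, 0.0431), and Hspa5 (-0.15, 0.0453). These came from 1 of 3 tools.

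At an unadjusted p under 0.05 stood 15 members in intact mice, against 12.2% of all genes, 13 of them below 0 (4.9% of all genes) and 2 above, and the smallest adjusted p of a member was 0.408 (limma). After injury there were 4 (8.06% of all genes), 2 below (3.51%) and 2 above, with a smallest adjusted p of 0.578. For the average there were 22 (20.2%), 17 below (8.22%) and 5 above, with a smallest adjusted p of 0.157. No member reached an unadjusted p under 0.05 for the difference between the injury effects, against 2.1% of all genes. Summed over all 74 members, the level was 11549.8 ± 259 in PBS, 11052 ± 36.0 in IPA, 11431 ± 373 in PBS.SNC and 10933 ± 332 in IPA.SNC.

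The 4 members with the smallest p in each of these comparisons had the following log2 values. In intact ganglia they were Hspa5 (-0.18 ± 0.07), Hsp90b1 (-0.19 ± 0.07), Dnajb4 (-0.17 ± 0.06) and Dnajc13 (-0.21 ± 0.08). After injury Hsph1 (-0.22 ± 0.07), Hspb2 (0.29 ± 0.11), Dnajc19 (0.15 ± 0.06) and Hsp90b1 (-0.18 ± 0.07) led. In the average Hsph1 (-0.19 ± 0.05), Hsp90b1 (-0.18 ± 0.05), Hspa4l (-0.21 ± 0.06) and Dnajc13 (-0.18 ± 0.06) did. For the difference between the injury effects, Dnajc19 (0.16 ± 0.09), Dnajb14 (0.17 ± 0.09), Dnaja2 (0.10 ± 0.07) and Dnajb9 (0.16 ± 0.11) had the smallest p. None of these values passed the test, and the average is made from the same libraries as the other comparisons.

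For Hspb1, the levels of the intact groups did not overlap, and IPA libraries lay higher, with a log2 difference of 0.20 ± 0.09 (limma, adjusted p = 0.408, 95% interval 0.02 to 0.38). After injury the groups overlapped, at 0.13 ± 0.09 (adjusted p = 0.699, 95% interval -0.06 to 0.31). The rise of Hspb1 after injury differed between IPA and vehicle by -0.07 ± 0.12 (adjusted p = 1.00, 95% interval -0.33 to 0.19). The 95% interval of the IPA effect lay within 1.5-fold in either direction for 65 of 68 members in intact ganglia, for 67 after injury and for 67 in the average. A p that misses the threshold does not show that the groups were alike.

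**Figure D5:**
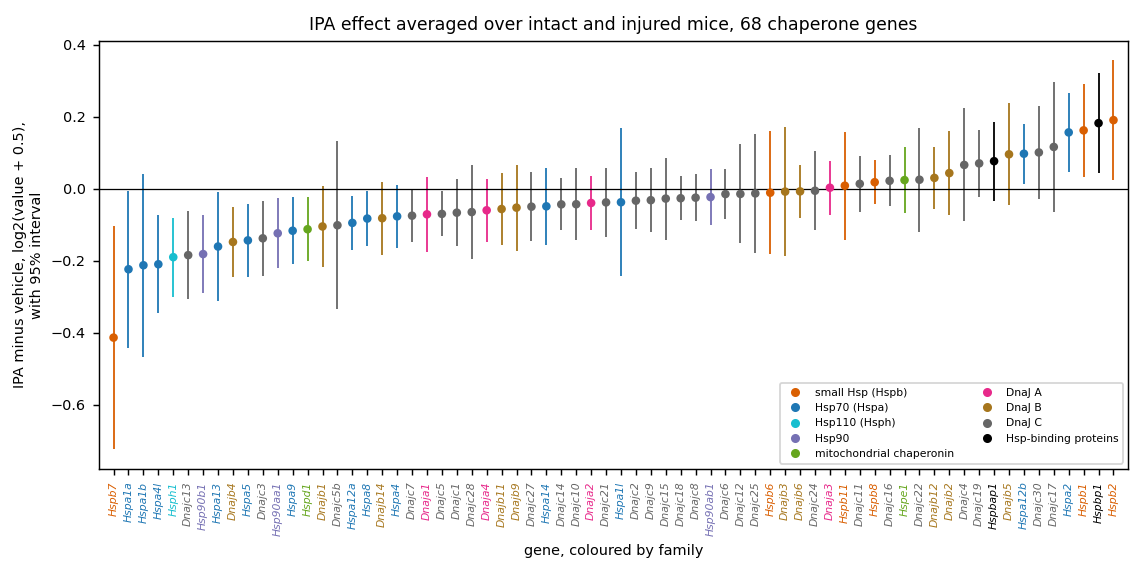
Log2 difference between IPA and vehicle, averaged over intact and injured ganglia, for the 68 tested members, with 95% intervals. No member passed the test, and Hsph1, with the smallest p, lies at -0.19.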

How the data were processed

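RNA of DRG from 12 pools of 2 mice was read in directional poly(A) libraries as pairs of 75 bases, per the labels' protocols. Build mm10 and the tools FastQC 0.10.1, R 3.5.0, STAR 2.7.0, limma 3.38.3 and edgeR 3.24.3 are listed without roles, per the submitters' processing notes. What counted the reads, and on which annotation, is not given in the sources used here. Although named FPKM, the table the authors deposited holds CPM-like values, with no gene length divided out. In each library 100% of values were whole multiples of 1 step (tolerance 1e-06), so whole reads were recovered, with 1 read worth 0.0130 to 0.0199. Per-kilobase levels divide by the merged length of all GENCODE M21 exons of the gene.

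The design assumed FPKM, and its test was kept. Values were taken as log2(value + 0.5), which understates the change of low genes. The 15603 genes reaching 0.5 in 3 or more libraries entered 1 model over all groups, limma-trend (limma 3.58.1, R 4.3.3), with 8 residual degrees of freedom, Benjamini-Hochberg adjusted over all of them, and passed at an adjusted p under 0.05. On recovered reads, edgeR 4.0.16 (quasi-likelihood) called 7493 genes after injury under vehicle and 6936 under IPA, and limma 7484 and 6808. DESeq2 1.42.0 was run on the same reads. The model was tested on simulated data. Replicates are separate pools, and p-values measure the spread between pools.

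The members, the lists of partners and of cell markers, and the tests were chosen with earlier results of these data known. Named were all Hsp members, DnaJ members past either injury test with an absolute log2 change of at least 0.4 and a mean of at least 1, 7 fixed DnaJ genes, the 4 smallest p of each IPA comparison, and up to 3 genes per list. Alternatives were pseudocounts of 0.1 and 1, other filters and scalings, robust empirical Bayes, a replicate block, only the libraries compared, each library left out, and, chosen after seeing the data, removal of GC and length trends. Gene positions are from GENCODE M21 and promoters from RefSeq, both on GRCm38.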

Additional observations from a re-analysis of the deposited data

How the results depend on the processing

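The alternatives gave 2140 values for 86 results. Of these values, 2025 kept their direction and their side of the threshold, 96 lost the threshold, 19 passed it and 0 reversed. The injury changes among the 86 were those of members past an injury test, so they were picked by their calls. They left out the 33 members past the test in neither injury comparison. Among those 33, the sign differed in some alternative for 14 under vehicle and 16 under IPA. In every alternative 22 of the 30 calls under vehicle and 20 of the 31 under IPA held, and 19 members held in both: 7 rose (Dnajb5, Dnajc2, Dnajc7, Hspa12b, Hspa2, Hspb1 and Hspb8) and 12 fell (Dnaja4, Dnajb14, Dnajc18, Dnajc22, Dnajc27, Dnajc28, Dnajc3, Dnajc6, Hspa12a, Hspa1b, Hspa4l and Hsph1). The others held in some alternatives only. Besides left-out libraries, with no filter the calls of Hsp90aa1 (adjusted p = 0.0592 under vehicle, 0.0919 under IPA by limma), Hsp90b1 (0.0513 and 0.0659) and, under IPA, Hspa9 (0.0949), Hspb7 (0.0642), Hspa1l (0.0643) and Hspa1a (0.125) ended. DESeq2 called 6 members for IPA averaged over both injury states, where limma called 0. Leaving out 1 library at a time gave 26 to 36 members under vehicle, 23 to 33 under IPA, and 0 for every IPA comparison and the difference between the injury effects. Partner genes called came to 21 to 35 under vehicle, the lowest without replicate 2 of PBS, and 23 to 35 under IPA. With GC and length trends removed (chosen after seeing the data), members split 10 up and 29 down under vehicle and 12 up and 28 down under IPA, against 10 and 20, and 11 and 20, and partner genes 22 up and 21 down under vehicle, against 21 and 11. The shares of all genes called with trends removed, with 1 library left out or with a replicate block are not given here. The shifts therefore cannot be read as particular to members or partners. The cause was not tested.

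With the replicate number as a block, 31 members were called under vehicle, 29 under IPA and 0 for the 4 other comparisons, and 29 and 28 partner genes. Deviations of libraries with the same number correlated at -0.25 to 0.29, and those with different numbers at -0.35 to 0.29. Not every library correlated best with its own number. With 3 libraries per group, this check cannot show whether a number marks a shared batch. Depth limits the lowest members: 1 read is worth up to 0.0199, and Dnajb7, Dnajb8, Dnajc5g and Hspb3 had fewer than 10 reads in every library.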
